A study of Caenorhabditis elegans with 4 samples.

Results

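The 100 genes described here gave strongly unequal signal between their annotated isoforms in early embryos of the nematode Caenorhabditis elegans. A gene was eligible if the array table held at least 2 rows for lettered isoforms of it and its highest row averaged 10 or more on the log2 scale. The 1562 eligible genes were ranked by the mean log2 signal of their highest row minus that of their lowest row, and the first 100 were kept with all of their 328 rows. Because the members were chosen by that difference, its size is given as a description with no test. The samples were 4 single-colour NimbleGen arrays of total RNA from early embryos, labelled as strain PFR40 with the hpl-2 allele tm1489. They form 1 group of 4 replicates, written as arrays 1 to 4, and no other genotype was analysed here. The embryos came from bleached adults labelled as hermaphrodites with a small percentage of males. The genotype labels name the mutant, but their growth protocol names N2, the wild type, so the strain is given here only as labelled. Nothing in the labels says that the replicates came from separate cultures, so the spread between arrays may be technical.

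Many genes of this animal make several messenger RNAs, through alternative splicing, alternative promoters and alternative 3′ ends. Gene models of the worm carry a sequence name, and a lower-case letter after it marks each annotated isoform. Some of these forms are known for separate work: the splice forms of the apoptosis gene ced-4 have opposing activities, and the tropomyosin gene lev-11 makes different proteins in body wall muscle and pharynx. An array row summarises probes placed on 1 such model. Rows of 1 gene can share probes where the models share exons, and probes differ in brightness, so a difference between rows is one of signal and not a ratio of isoform amounts. Which exons each row reads is not known here, with probe positions and isoform structure not given in the sources used here.

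On the arrays themselves, the median signal was 576 to 591 and the lowest signal 100.6, on a linear scale. Background was set on each array at the 95th percentile of the rows of chemoreceptor genes, which encode receptors of sensory neurons, and came to 8.09, 8.45, 8.26 and 8.48 log2 on arrays 1 to 4. A row with random sequence on the same arrays read 7.17 to 7.45. The gene named by the strain, hpl-2, encodes a heterochromatin protein 1 homolog and had 3 rows. Its row a read 11.23, 11.33, 11.25 and 11.28 log2 on arrays 1 to 4, and its row c read 10.46, 10.55, 10.43 and 10.56. All 3 rows were above background on every array, and where their probes lie relative to the allele is not known here, so these values do not check the label. The difference was 0.77 ± 0.040 (SD, n = 4), and hpl-2 ranked 511 among the eligible genes, outside the group described here.

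Within the members, the highest row stood between 3.29 and 6.63 log2 above the lowest, with a median of 4.45. Over the other 1462 eligible genes the median was 0.29 and the largest value 3.28. The median over the members was 4.43, 4.33, 4.41 and 4.37 on arrays 1 to 4, with little difference between arrays. The last members inside the limit were the calcium channel gene unc-2 at 3.31, lev-11 at 3.31 and CC8.2 at 3.29, and the first genes outside it were epg-9 at 3.28, btbd-10 at 3.25 and pat-12 at 3.25. Of the 630 genes whose highest row stayed under the minimum of 10, the largest difference was 2.77, so that minimum removed no gene past the limit.

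**Figure D1:**
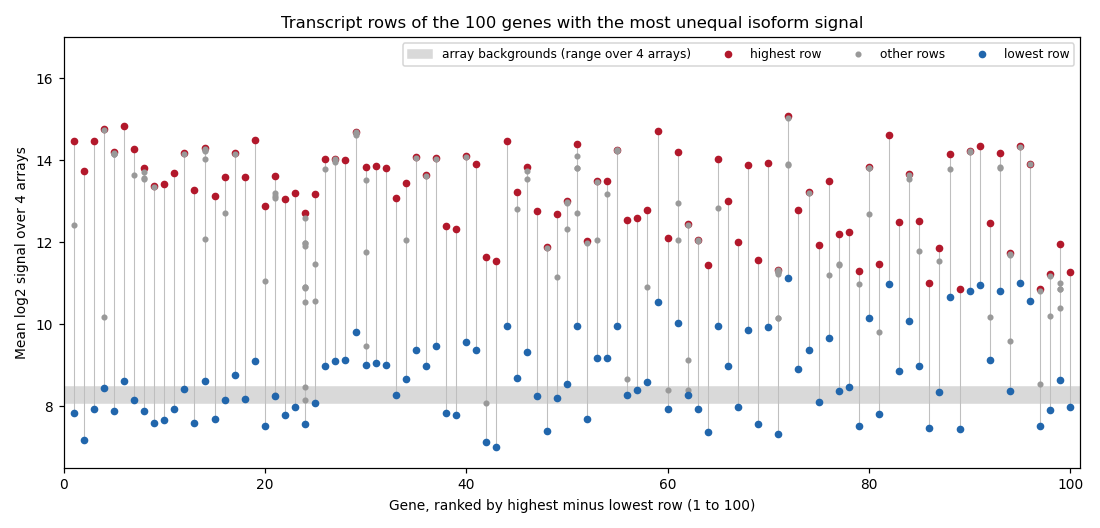
Mean log2 signal over 4 arrays (vertical axis) of every transcript row of the 100 members, placed by rank (horizontal axis); red points are highest rows, blue points lowest rows, grey points other rows, and the grey band spans the backgrounds of the 4 arrays. Highest rows lie between 10.85 and 15.08, and 32 lowest rows were at or below background on every array.

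The low rows ranged from below background to well above it. In 32 members the lowest row was at or below background on all 4 arrays, in 46 it was above on all 4, and in 22 it was above on some arrays. Of all eligible genes, 2.88% had a lowest row at or below background on every array. The lowest row was not above background on all 4 arrays in 54 members, and in 5.44% of the eligible genes. These counts follow in part from the choice by a large difference and are read no further. They also depend on where background is set: the 54 became 78 with the 99th percentile of the chemoreceptor rows, 14 with their 75th percentile, 19 with the 25th percentile of all rows and 9 with the random control row, a setting chosen after seeing the data. The highest row was above background on all 4 arrays in all 100 members and in 100% of the eligible genes, as the minimum for the highest row leaves it. Over the 328 rows of the members, 267 were above on all 4 arrays. Of all 23180 transcript rows on the array 55.6% were, but those rows passed no minimum level. These shares are therefore not like for like, and the share over the rows of all eligible genes was not computed. For a low row at background the difference printed for a gene is that of the deposited signals, and only the value with signals raised to background is a lower bound. With every value raised to the background of its array, the differences of the members ran from 2.53 to 6.30, with a median of 4.19.

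Ranking on 3 arrays and reading the difference on the array left out gave values that the ranking of that round had not used. The 100 genes ranked without array 1 had a median difference of 4.43 on array 1. The corresponding medians on the left-out arrays 2, 3 and 4 were 4.33, 4.41 and 4.37. The row that was higher on the 3 arrays was also higher on the fourth for all 100 genes in each of the 4 rounds. The smallest held-out difference was 2.59. Each round shared 97 to 99 genes with the members, and 90 to 97 of its genes had the same highest and lowest rows as with all 4 arrays. The medians on the left-out arrays were those of the members on the same arrays. With differences this large, the order of the rows also had little room to turn. The rounds thus describe nearly the same genes and give no separate support for the choice.

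The largest difference of the deposited signals was that of plpp-1.1, which encodes a phospholipid phosphatase. Its row c read 14.46, 14.50, 14.47 and 14.44 log2 on arrays 1 to 4, and its row b read 7.97, 7.74, 7.92 and 7.72. Row b was below background on every array, row a stood between them at 12.41, and the difference of rows c and b was 6.63 ± 0.13 (SD, n = 4). The sequence-named genes T28D9.4 and Y43F8B.2 followed, each with 2 rows and differences of 6.57 ± 0.16 and 6.54 ± 0.17. In E02D9.1, rows b and c averaged 14.73 and 14.75, while row d averaged 10.17 and row a 8.45. The difference in calu-1, the gene of the calcium-binding protein calumenin, was 6.22 ± 0.15, and its row b, at 8.58, 8.63, 8.45 and 8.81 log2 on arrays 1 to 4, stayed above background on every array.

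The glycolytic gene enol-1, which encodes enolase, had row b at 13.93, 14.36, 14.37 and 14.39 log2 and row c at 8.32, 8.23, 8.14 and 7.96. Its difference was 6.10 ± 0.35, smallest on array 1, where row b was lowest and row c highest. For tdc-1, the tyrosine decarboxylase gene of tyramine synthesis, row a averaged 13.70 ± 0.32 and row b 7.93 ± 0.079, a difference of 5.76 ± 0.26. The septin gene unc-61 had rows b and c within 0.015 of each other and row a 5.75 ± 0.16 below row c. Among the other first-ranked genes, F25B5.3 differed by 5.93 ± 0.17, pqn-52 by 5.77 ± 0.13 and C34D4.4 by 5.77 ± 0.14 (SD, n = 4 throughout). With signals raised to background, the order changed: E02D9.1 came first at 6.30 and calu-1 next at 6.22. Row a of E02D9.1 was only just above background on array 2, at 8.46 against 8.45, so this order may depend on where background is set. The differences of Y43F8B.2, plpp-1.1, egl-4 and F25B5.3 became at least 6.16, 6.15, 5.87 and 5.48, and those of T28D9.4, tdc-1, C34D4.4 and pqn-52 at least 5.42, 5.38, 5.1 and 5.05.

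A single low row set apart from the others was the most frequent arrangement. Of the 62 members with 3 or more rows, 50 had their widest gap just above the lowest row, 5 just below the highest row, and 7 between 2 sets of at least 2 rows. Among the 381 other eligible genes with 3 or more rows the same 3 classes held 225, 123 and 33 genes. In 28 of the 50 members the remaining rows lay within 0.5 log2 of each other, as they did in 205 of the 225 other genes. Of the members with 3 or more rows, 39 held a pair of neighbouring rows within 0.1, and so did 311 of the 381 other genes. Over all other eligible genes the median difference between highest and lowest row was only 0.29, so their rows lay close together in any case. These counts are therefore not like for like, and near-equal rows cannot be called particular to the members.

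The clearest case was egl-4, which encodes a cGMP-dependent protein kinase and had 6 rows. Rows a, b, c, e and f averaged between 14.14 and 14.19 log2, while row d read 7.81, 8.04, 7.85 and 7.86 on arrays 1 to 4. Row d was below background on every array and 6.25 under the next row. The microtubule gene noca-1 had the same arrangement at a higher level: rows a, b, c, e and f averaged 14.62 to 14.69, and row d read 10.15, 9.73, 9.66 and 9.74. Its low row was above background on all arrays, and the difference was 4.87 ± 0.19. In the hypoxia factor gene hif-1, rows a, b, c and e averaged 13.97 to 14.03, and row d read 9.45 on array 1 and 8.95 to 9.01 on the others. The gene egl-9, whose prolyl hydroxylase marks HIF-1 for degradation, was also a member, with row c at 8.53 ± 0.18, row b at 12.32 and the other 3 rows within 0.032 of each other at the top. The nuclear receptor cofactor gene din-1 had 4 rows within 0.032 of each other and row d 4.31 ± 0.10 under the highest.

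**Figure D2:**
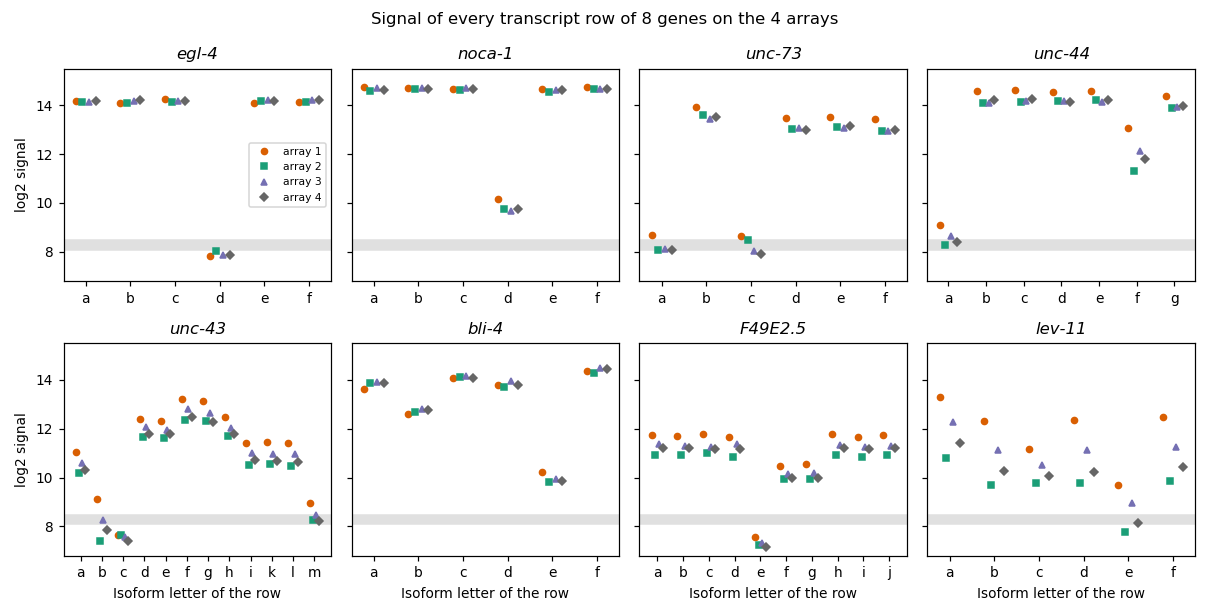
Log2 signal (vertical axis) of every isoform row, by its letter (horizontal axis), for the 8 members with 6 or more rows; each point is 1 of the 4 arrays and the grey band spans the array backgrounds. In egl-4 and noca-1 only row d is low, unc-73 and unc-43 have several low rows, and all rows of lev-11 lie highest on array 1.

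Other genes with 6 or more rows had more than 1 low row or rows at intermediate levels. The gene unc-73, which acts in cell migration and axon guidance, had rows a and c at 8.24 ± 0.29 and 8.27 ± 0.35 and its other 4 rows between 13.07 and 13.62. The calcium/calmodulin-dependent kinase gene unc-43 had 12 rows spread over several levels. Rows c, b and m averaged 7.56, 8.15 and 8.47 log2, row a and rows i, k and l 10.54 to 10.91, rows d, e and h 11.91 to 11.99, and rows g and f 12.60 and 12.71. The neuronal ankyrin gene unc-44 had row a at 9.11, 8.29, 8.65 and 8.38 on arrays 1 to 4, row f at 13.08, 11.31, 12.12 and 11.80, and 5 rows averaging 14.04 to 14.29. In the proprotein convertase gene bli-4, row e averaged 9.96, row b 12.72 and row f 14.39. The largest set without a gene symbol, F49E2.5, had row e at 7.33 ± 0.18, rows f and g at 10.14 and 10.16, and 7 rows between 11.23 and 11.31.

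The opposite arrangement, 1 high row over the rest, occurred in jun-1, tax-6, srp-7, rnh-1.0 and ZK470.2. For jun-1, which encodes the AP-1 factor Jun, row a read 12.11, 11.25, 11.61 and 11.60 log2 on arrays 1 to 4, and rows b and c averaged 7.12 and 8.08. For tax-6, the calcineurin A gene, row a averaged 12.10 ± 0.43 and rows b and c 7.94 ± 0.24 and 8.40 ± 0.31. In both genes the high row and the second row were highest on array 1.

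Signalling genes made up 19 of the members, with differences of 3.35 to 6.30. This and the other role groups were put together after the values were seen. No share of the eligible genes was computed for them, so their sizes say nothing about the members. A separate signalling list, given further on, held 5 members among 50 eligible genes. In the 19, the lowest row was at or below background on every array in 2, egl-4 and unc-43. The same held for 32 of all 100 members and 2.88% of the eligible genes. It was above on every array in 8, beside 46 of 100, while only 5.44% of the eligible genes had a lowest row that was not. The insulin-pathway kinase gene akt-1 had row c at 13.26, 13.29, 13.15 and 13.18 log2, and row b at 8.69, 8.69, 8.68 and 8.74. Row b lay just above background and row a, at 12.81, near row c, with a difference of 4.52 ± 0.079 between c and b. The apoptosis gene ced-4 had row a at 13.72, 13.83, 13.83 and 13.85 and row b at 8.63, 9.23, 9.0 and 9.14. Its row b was above background on every array, and the rows differed by 4.81 ± 0.21. The sex determination gene tra-2, which encodes a membrane protein that promotes female development, had row a at 13.95, 13.97, 14.05 and 14.01 and row b at 8.76, 9.37, 9.05 and 9.29.

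Both ced-4 and tra-2 had their low row lowest on array 1 and their largest difference there. Among the other signalling members, mob-2, of the Mob kinase activator family, had 5 rows spread from 9.0 to 13.84. The Numb homolog num-1 differed by 4.57 ± 0.34, the LAMMER kinase gene madd-3 by 4.54 ± 0.32. The phosphatase gene scpl-1 had row a between 12.53 and 12.88 and row b between 8.17 and 8.35 over the arrays. The differences were 4.46 ± 0.20 for the diacylglycerol kinase gene dgk-2, 4.20 ± 0.17 for the protein kinase D gene dkf-2, 3.77 ± 0.23 for the tetraspanin gene tsp-14 and 3.49 ± 0.11 for the merlin homolog nfm-1. For kbrl-1 the value was 5.43 ± 0.057. The SR protein kinase gene spk-1 was the steadiest member: row a read 14.35, 14.34, 14.37 and 14.35, row c 10.98 to 11.01, and their difference ranged by 0.024 over the arrays.

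Of 14 members that regulate transcription or chromatin, 10 had a lowest row above background on every array, beside 46 of all 100 members. Over all eligible genes only 5.44% had a lowest row that was not above on all 4 arrays, so the 10 are no high share. The bZIP factor gene atf-7 had rows a and b within 0.016 of each other and row c at 8.71, 8.90, 8.74 and 8.68 log2, a difference of 5.40 ± 0.11. The posterior Hox gene nob-1 had row b at 13.18, 13.13, 12.83 and 13.14, against row a at 8.24, 8.50, 7.92 and 8.45, and its low row crossed the background between arrays. The FoxA gene pha-4, which specifies the pharynx, had rows b and c at 13.21 ± 0.26 and 13.23 ± 0.26 and row a at 9.38 ± 0.23. In skn-1, a maternal regulator of early fate and later of stress responses, rows a and c averaged 13.90 each and row b read 10.35, 10.80, 10.48 and 10.62.

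The AF10 homolog zfp-1, which acts with small RNA pathways on chromatin, had rows a and c at 14.08 and 14.11 and row b at 9.94, 9.36, 9.42 and 9.57. Its low row was above background on all arrays. The zinc finger gene zfp-3 differed by 3.68 ± 0.34, the Mediator subunit gene mdt-26 by 4.07 ± 0.15, the Pax6 gene vab-3 by 3.54 ± 0.13 and the forkhead gene fkh-7 by 3.36 ± 0.036. In each of these the lowest row was above background on every array. The Period homolog lin-42 and the pharyngeal DNA-binding protein gene peb-1 had low rows below background throughout and are given with the spread between arrays.

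The 14 members of cytoskeleton, muscle, adhesion and matrix had differences of 3.31 to 5.75, and in 12 of them the highest row was highest on array 1. That count was 50 of 100 over all members and 40.8% over all eligible genes. Of the marker genes measured, 14 of 14 for muscle and 7 of 9 for cuticle were highest on array 1 as well, and their part in this count was not tested. Among them let-805, which encodes myotactin, a protein of the attachments between epidermis and muscle, had row c at 13.94, 12.68, 13.07 and 12.98 log2 and row a at 8.40, 7.88, 8.27 and 7.78. The kettin gene ketn-1, for a protein of muscle thin filaments, had row d at 12.50, 12.09, 12.12 and 12.08 and row b at 8.81, 8.19, 8.40 and 8.10. The laminin alpha gene epi-1 differed by 3.64 ± 0.34 and the alpha-catulin gene ctn-1 by 3.57 ± 0.32. For these last genes the low row varied more than the high one, with ranges of 0.80 and 1.01 log2 over the arrays against 0.11 and 0.25. The FERM protein gene frm-1 differed by 4.52 ± 0.13, the L1CAM homolog lad-2 by 3.67 ± 0.30 and the tau-like gene ptl-1 by 3.33 ± 0.34. The low rows of lad-2 and ptl-1 were below background on every array, and with signals raised to background their differences became at least 3.16 and 2.54.

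The 12 members with metabolic roles had differences of 3.40 to 6.63, with a median of 5.01. In 6 of them the lowest row was at or below background on every array, beside 32 of all 100 members and 2.88% of the eligible genes. Besides plpp-1.1, enol-1 and tdc-1, they held the saposin-like gene spp-10 at 5.45 ± 0.18, the glutathione transferase gene gsto-2 at 5.38 ± 0.12 and the lipid-binding protein gene lbp-9 at 5.22 ± 0.13. The galectin gene lec-1 differed by 4.81 ± 0.057, the S-adenosylmethionine synthetase gene sams-3 by 4.16 ± 0.10, the respiratory complex I gene nuo-2 by 4.02 ± 0.11 and prps-1, for phosphoribosyl pyrophosphate synthetase, by 3.40 ± 0.093. The glycosyltransferase gene gly-5 and abhd-5.2 differed by 4.19 ± 0.30 and 3.41 ± 0.23, the second at least 2.53 with signals raised to background. None of the 12 had a difference that ranged by 1 log2 or more over the arrays, where 1.47% of all eligible genes did. In 3 the highest row was highest on array 1, beside 50 of 100 members and 40.8% of all eligible genes.

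The 8 members that act on nucleic acids or in translation had a lowest row at or below background on every array in 5 cases, beside 32 of all 100 members and 2.88% of the eligible genes. The recombinase gene rad-51 had row b at 13.14, 13.31, 13.33 and 13.36 log2 and row a at 7.54, 7.65, 7.62 and 7.54, a difference of 5.70 ± 0.093. The ribosomal protein gene rpl-22 had row a at 12.55, 12.33, 12.32 and 12.36 and row b at 7.74, 7.78, 7.89 and 7.90. The low rows of both genes were below background on every array. The mismatch repair gene pms-2 differed by 4.53 ± 0.12, at least 3.22 with signals raised to background, the ribosomal RNA maturation homolog tsr-2 by 5.26 ± 0.29 and the poly(A) polymerase gene tent-5 by 4.14 ± 0.17. The low rows stayed above background in hrpa-2, an hnRNP A relative, at 9.38 ± 0.18, in the splicing factor homolog luc-7L at 9.92 ± 0.26 and in the ribonuclease H gene rnh-1.0 at 9.12 ± 0.088.

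Of the 5 members in membranes and transport, the reticulon gene ret-1 held the brightest low row, with row a at 11.17, 11.13, 11.08 and 11.09 log2 under row e at 15.15, 15.02, 15.07 and 15.08. The phospholipid flippase gene tat-4 differed by 4.78 ± 0.10 and unc-2 by 3.31 ± 0.27. Outside these roles, the serpin gene srp-7, pqn-65, lmd-3 and lgx-1 differed by 3.83 ± 0.047, 4.53 ± 0.16, 4.33 ± 0.071 and 3.54 ± 0.28. The remaining 23 members have only a sequence name, and 1 of them, Y51H1A.1, had no match in the gene table used. Their differences ran from 3.29 to 6.57 with a median of 4.18. In 11 the lowest row was at or below background on every array, beside 32 of all 100 members and 2.88% of the eligible genes.

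The spread of the difference between arrays was not used to choose the members, but it may not be free of that choice. The lowest rows had a median level of 8.46 log2 in the members and 12.58 in the other eligible genes. Rows of the other genes lay closer together, with a median difference of 0.29, and may share probes. The part of either in the spread was not tested. The difference ranged over the 4 arrays by a median of 0.38 log2 in the members and 0.12 in the other eligible genes. The members' highest rows alone had a median range of 0.20 and their lowest rows 0.32, and those of the other eligible genes 0.18 and 0.21. The difference ranged by 1 log2 or more in 6 members, against a background of 1.47% of the eligible genes. These 6 were sek-3, mca-3, T04C9.1, deb-1, peb-1 and lin-42, and without array 1 only T04C9.1 and peb-1 still reached 1. The highest row ranged by 1 or more in 9 members, where 6.66% of all eligible genes did, and the lowest row in 5 members, where 5.83% did. With 1 group of 4 arrays, none of these counts was tested.

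**Figure D3:**
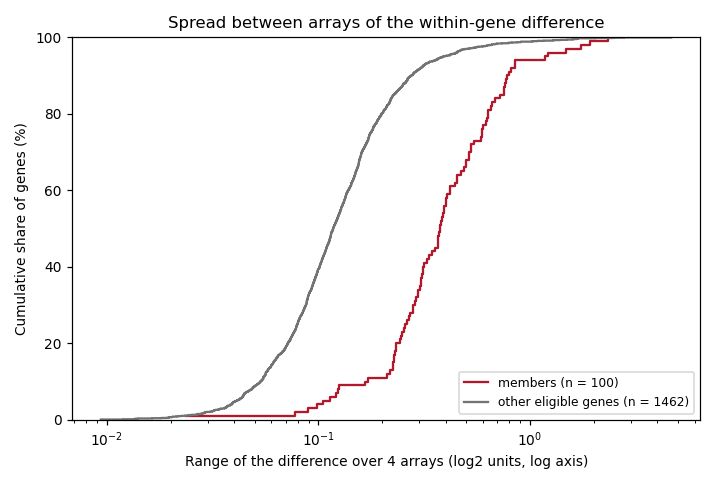
Cumulative share of genes (vertical axis, percent) against the range over 4 arrays of the difference between highest and lowest row (horizontal axis, log2 units on a log scale) for the 100 members in red and the 1462 other eligible genes in grey. The median range is 0.38 in the members and 0.12 in the other genes.

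In deb-1, peb-1, lin-42 and sek-3 the high row ranged by over 1 log2 while the low row stayed near or below background. The vinculin gene deb-1, of the muscle attachment sites, had row a at 13.10, 10.91, 12.10 and 11.42 log2 on arrays 1 to 4 and row b at 7.65, 7.21, 7.45 and 7.24. Row a ranged by 2.19 and row b by 0.44, with the arrays in the same order, and row c, averaging 11.87, ranged by 1.92. For peb-1, row a read 12.61, 10.46, 11.52 and 11.19 and row b 7.38, 7.57, 7.26 and 7.26. Its difference ranged by 2.34, the widest among the members. In lin-42, row a read 12.20, 10.65, 11.45 and 10.89 and row c 7.61, 7.55, 7.47 and 7.47. All 3 high rows were highest on array 1 and lowest on array 2, with array 3 above array 4. The MAP kinase kinase gene sek-3 had row a at 14.38, 13.26, 13.32 and 13.35, so that array 1 alone stood apart, and row b at 8.14, 8.24, 8.10 and 8.23.

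Both rows moved together in lev-11 and unc-52. For lev-11, row a read 13.31, 10.81, 12.28 and 11.41 log2 and row e 9.71, 7.79, 8.96 and 8.13. The rows ranged by 2.50 and 1.92, yet their difference ranged by only 0.59, at 3.31 ± 0.24 (SD, n = 4). Row e was above background on arrays 1 and 3 and below it on arrays 2 and 4. Rows b, d and f of lev-11 ranged by 2.63, 2.59 and 2.63, and row c by 1.39. For unc-52, which encodes the perlecan of the muscle basement membrane, row f read 12.88, 10.83, 11.86 and 11.34 and row e 9.13, 7.71, 8.65 and 7.99, with a difference of 3.36 ± 0.28. Its rows a and c ranged by 2.01 and 2.04, and row b read 10.62, 8.64, 9.87 and 9.21. In unc-44 the intermediate row f ranged by 1.77, whereas its 5 high rows ranged by 0.42 to 0.50. Among the low rows of unc-43, row b ranged by 1.73 and row c by 0.27.

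In mca-3 and T04C9.1 the low row moved under a steady high row. The plasma membrane calcium pump gene mca-3 had row c at 14.09, 14.04, 13.99 and 14.01 log2 and row a at 9.78, 8.54, 9.01 and 8.60. For T04C9.1, row b read 13.73, 13.63, 13.65 and 13.58 and row c 8.48, 8.73, 10.31 and 8.43, so that array 3 alone stood apart. The difference was 3.34 on array 3, beside 4.90 to 5.26 on the other arrays. The next widest ranges of the difference were both 0.85, in unc-43 and Y44E3A.1. In Y44E3A.1, row a read 11.81, 11.51, 11.41 and 11.56 and row b 7.38, 7.94, 7.39 and 7.57, so that array 1 had the highest row a and the lowest row b.

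**Figure D4:**
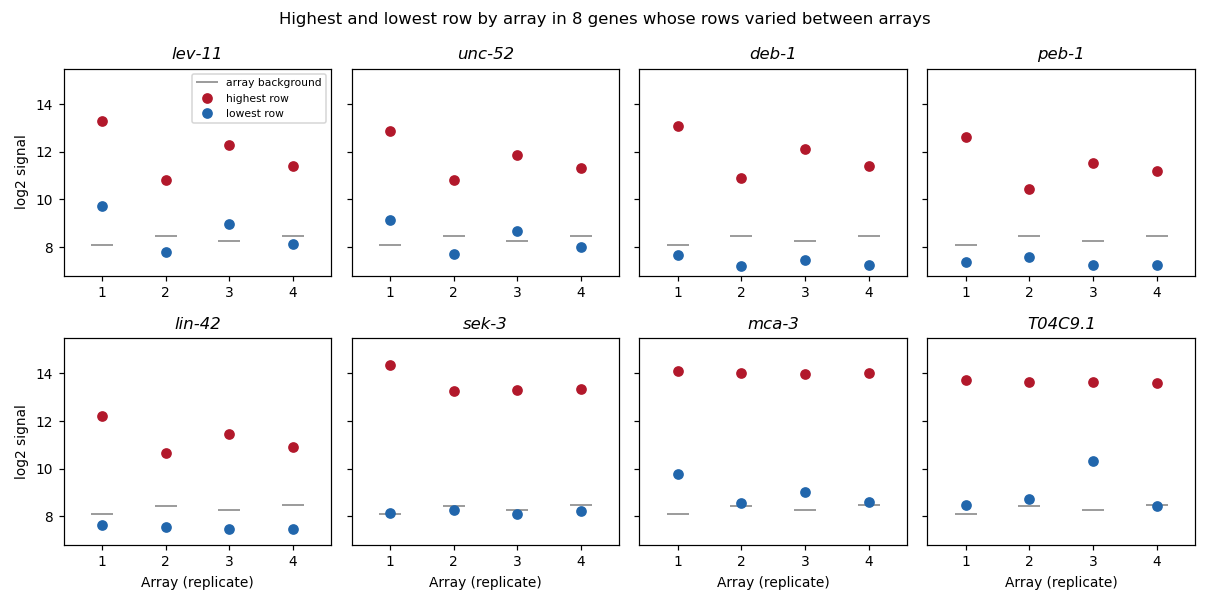
Log2 signal (vertical axis) of the highest row (red) and lowest row (blue) on arrays 1 to 4 (horizontal axis) for 8 members, with the background of each array as a grey bar. Both rows range by over 1 log2 in lev-11 and unc-52, the high row does so in deb-1, peb-1, lin-42 and sek-3, and the low row in mca-3 and T04C9.1.

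**Figure D5:**
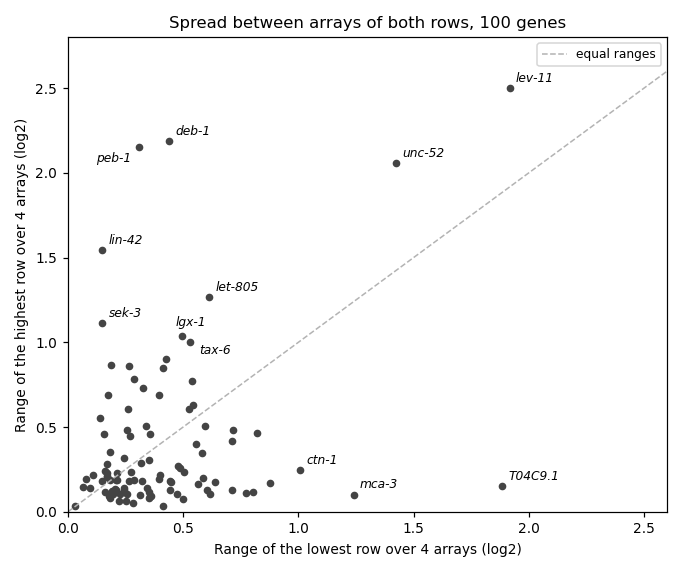
Range over 4 arrays of the highest row (vertical axis, log2) against that of the lowest row (horizontal axis, log2) for each of the 100 members, with a dashed line at equal ranges. The genes lev-11 and unc-52 lie far out on both axes, deb-1, peb-1 and lin-42 on the vertical axis and T04C9.1, mca-3 and ctn-1 on the horizontal axis.

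The summed signals of muscle markers and of cuticle markers both put the arrays in the order seen in the high rows of lev-11, unc-52, deb-1, peb-1 and lin-42. These genes are named for that order, and the members sharing it were not counted. The high row of sek-3 had another order, with array 4 above array 3. All 14 muscle markers were highest on array 1, and their summed signal was 108015, 61025.5, 78083 and 67973 on arrays 1 to 4. Cuticle markers summed to 91871, 42224, 56401 and 49108, with 7 of 9 highest on array 1. All 15 germline and oocyte markers were lowest on array 1, where they summed to 197465, against 248351 to 258935 on the other arrays. All 10 sperm markers were lowest on array 1 too, at 6728 in sum, against 9815 to 15155. Markers of neurons had 7 of 10 highest on array 1 and those of intestine 6 of 10. Early zygotic markers had 1 of 10 highest and 7 of 10 lowest on array 1. At or below background on all 4 arrays were 4 markers of intestine, 2 of sperm, 2 of cuticle, 1 of neurons and 1 early zygotic. The names are those of the marker lists and do not show that such cells were present in the embryos. In whole embryos fewer cells of a type, less RNA per cell and other sources of a lower signal cannot be told apart. The part of these markers in the spread of the members was not tested.

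Rows of the members went both ways on array 1. The median deviation of their highest rows from the mean of the 4 arrays was 0.040 on array 1 and that of their lowest rows -0.031, beside -0.0060 and -0.0098 in the other eligible genes. The difference deviated by a median of 0.092, -0.069, 0.039 and -0.027 on arrays 1 to 4 in the members, and by 0.0077, -0.0017, -0.00052 and -0.0099 in the other genes. In absolute terms it deviated by a median of 0.19, 0.12, 0.092 and 0.081 in the members, and by 0.042, 0.035, 0.033 and 0.033 in the other genes. The difference was largest on array 1 in 50 members, where 36.2% of all eligible genes had theirs, and smallest on array 1 in 32, where 26.6% had. The highest row was lowest on array 1 in 36 members, beside 39.6% of all eligible genes. The lowest row was highest on array 1 in 37 members, beside 37.8% of all eligible genes, and lowest there in 35 members, beside 40.7%.

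The members were also set beside the other eligible genes in number of rows, isoform letters, chromosome and overlap with other genes. Genes with 3 or more rows made up 62 of 100 members and 381 of 1462 other genes. More rows leave more room between extremes, so this is partly built into the choice. The highest row was row a in 40 members, b in 25 and c in 23, and in 44.8%, 44.9% and 7.52% of the other genes. The lowest row was row a in 28 members, b in 43, c in 14 and d in 9, and in 44%, 43.2%, 8.48% and 2.53% of the other genes. Which row is highest or lowest is set by the signal, and later letters are less open to genes with 2 rows. Such genes made up 38 of the members and 1081 of the other genes, so the letters follow in part from the number of rows. By chromosome, the members numbered 13 on I, 20 on II, 13 on III, 18 on IV, 18 on V and 17 on X. The other eligible genes numbered 269, 240, 300, 242, 183 and 218 in that order. In the annotation, 38 of 99 matched members overlapped another protein-coding gene, as did 473 of 1452 matched others. Among these members were akt-1, tra-2, unc-52, skn-1 and zfp-1, and without strand-specific probe data the signals of overlapping genes cannot be split.

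Members made up 6.4% of all eligible genes, and the share in each gene list is read beside that value. Of the eligible genes listed as having functionally distinct isoforms in the worm, 9 of 42 were members: unc-44, unc-43, tra-2, ced-4, pha-4, epi-1, unc-52, skn-1 and lev-11. The median difference over those 42 genes was 0.46, beside 0.34 over all eligible genes. Muscle genes had 4 of 20, namely deb-1, ketn-1, unc-52 and lev-11, and transcription factors 11 of 92. Cytoskeleton and motor genes had 4 of 31, signalling genes 5 of 50 and neuronal genes 2 of 23. The germline and maternal list had 1 of 18, skn-1, with a median difference of 0.05, and the chromatin list 1 of 19, zfp-1, with a median of 0.11. Ribosomal proteins had 1 of 13 and collagens and cuticle 1 of 6, while trafficking and transport had 1 of 49. RNA processing had 0 of 23 members, translation 0 of 12 and ubiquitin and proteasome 0 of 18. The lists were not tested, and nothing particular to any of them follows from these counts.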

How the data were processed

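NimbleGen labelled the total RNA with Cy3 (per the labels' protocols). The deposited values are linear intensity after quantile normalization, 1 average for each transcript, per the file headers. Probe number and position, background correction and genome build: not given in the sources used here. The combined table did not differ from the single-array tables (largest difference 0). Values were taken as log2 after a floor of 1, which no value reached. Of 23181 rows, 1 was a control and 5386 carried an isoform letter. Names came from the RefSeq gene table of assembly WBcel235, which was also used for overlap between genes; 99 of the 100 members matched, and 77 have a gene symbol. Background was the 95th percentile over 1374 rows of chemoreceptor genes. Python 3.11.15 with pandas 2.3.3, numpy 2.4.6 and matplotlib 3.10.9 was used, and the code of the ranking step was run on simulated data. A large drop had been planted there in 1 row of some genes, so the run checked the code and says nothing about these data. No hypothesis test of the members was run, since the series holds 1 group and the rule used the difference itself. Dixon's outlier criterion for 4 values, with a limit of 0.829, served only to flag values for a closer look. With 4 arrays, their number limits the precision. Gene span and protein length were not compared.

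Members and lists were chosen with earlier results of these data known. Genes named by rule were the 12 largest differences, the 8 largest ranges over arrays, 3 on each side of the limit, up to 8 members of each of 8 lists, and members with 6 or more rows. The other members are named by role, chosen after their values were seen, and the roles were assigned then too. Alternatives were each replicate left out, other floors, other summaries over arrays, other minimums for the highest row, other backgrounds and another measure of inequality.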

Additional observations from a re-analysis of the deposited data

Results flagged for a closer look

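In 15 of 138 values examined (highest row, lowest row and difference of each gene named by the rule), 1 array stood far from the other 3, relative to the range of the 4. By chance about 1 in 20 groups of 4 would be picked out this way, and the 3 values of a gene are not independent. Some genes, such as sek-3 and T04C9.1, were named for a wide range over arrays, so the count is partly built into the choice. The named genes also include some just outside the limit, such as epg-9. Of the 15, 13 concerned array 1. Highest rows lay below the other arrays on array 1 in enol-1 (13.93 log2, others 14.36 to 14.39), F25B5.3 (13.64, others 13.84 to 13.87), tdc-1 (13.22, others 13.82 to 13.91), ced-4 (13.72, others 13.83 to 13.85) and CC8.2 (11.07, others 11.34 to 11.35). They lay above the other arrays on array 1 in sek-3 (14.38, others 13.26 to 13.35), ketn-1 (12.50, others 12.08 to 12.12), unc-2 (11.58, others 11.09 to 11.14) and epg-9 (13.36, others 13.26 to 13.27).

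Lowest rows lay above the other arrays on array 1 in unc-73 (8.68, others 8.08 to 8.13), hif-1 (9.45, others 8.95 to 9.01) and noca-1 (10.15, others 9.66 to 9.74). The difference of hif-1 was 4.73 on array 1 and 5.0 on each of the other arrays. On array 3, the highest row of nob-1 was low at 12.83 (others 13.13 to 13.18) and the lowest row of T04C9.1 was high at 10.31 (others 8.43 to 8.73). Why single arrays stood apart was not tested.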

How the results depend on the processing

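The membership of the 100 genes depended mainly on the measure of inequality. Ranking by highest minus median row kept 57 of the 100 and gave a median of 1.82, a smaller quantity by construction. Raising signals to the array background kept 91, with a median difference of 4.19. The other planned settings kept 98 to 100, and leaving out 1 array kept 97 to 99 with medians of 4.36 to 4.45. A floor of 64 changed nothing, because no signal was below it. The 54 members whose lowest row missed the background became 78 with the 99th percentile of the chemoreceptors, 14 with their 75th percentile, 19 with the 25th percentile of all rows and 9 with the random control row, a setting chosen after seeing the data; with 1 array left out they numbered 53 to 54. The 6 members whose difference ranged by 1 log2 or more numbered 2 to 6 with 1 array left out, the 2 being those without array 1. They numbered 15 with signals raised to background and 33 with a limit of 0.5. Without the 4 muscle genes, median deviations on array 1 were 0.026 for highest and -0.036 for lowest rows. Of the 46 genes named by the rule, 21 moved by more than their SD with signals raised to background. Their sign cannot turn there, and leaving out 1 of 4 values hardly moves a mean past the SD, so neither shows stability. No paired analysis was possible because the 4 arrays form 1 group.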
